A study of Mus musculus with 73 samples.

Results

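Heat shock proteins are molecular chaperones, and 10 mouse genes of this group were followed through 8 RNA-seq libraries of preimplantation embryos. The 10 genes are the small heat shock genes Hspb1 and Hspb8, the HSP70 genes Hspa1a, Hspa1b, Hspa2, Hspa5 and Hspa8, the HSP90 genes Hsp90aa1 and Hsp90ab1, and the transcription factor gene Hsf1. They are 10 of the 25220 gene rows of the table and were picked by name, because Hspb8 and Hspa2 were known to be higher in p150DN embryos. For that reason their values in p150DN against EGFP 8-cell embryos are given as a description without a test.

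The groups were p150DN 8-cell embryos (3 libraries), EGFP blastocysts (2 libraries) and EGFP 8-cell embryos (3 libraries), all from embryos of a hybrid C57BL/6 / C3H strain kept in KSOM medium. The gene Chaf1a encodes p150, the large subunit of the histone chaperone CAF-1, and p150DN is, by its name, a dominant-negative form of it. How p150DN and EGFP were brought into the embryos, and how many embryos made a library, is not given in the sources used here. The labels give no culture, litter or day for a replicate. A p-value here is therefore set against the spread of these libraries alone, and that spread could be technical.

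Heat shock proteins hold unfolding proteins in a soluble state or refold them with ATP. Small heat shock proteins bind substrates without ATP, HSP70 proteins cycle on and off them with the help of HSP40 co-chaperones and nucleotide exchange factors, and HSP90 proteins act late on kinases, receptors and other clients. HSF1 is the transcription factor that binds heat shock elements, inverted repeats of the letters GAA, and switches on the inducible members. In the mouse, the inducible HSP70 genes are among the first genes transcribed from the embryonic genome, and HSF1 stored in the egg is needed for the early cleavages.

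Values are FPKM, fragments counted per kilobase of gene on a common library total, so levels can be set side by side between genes. The libraries held 16578221 to 22488477 counted fragments, and the genes detected above 0 were most numerous in p150DN replicates 2 and 3 (20465 and 21282, against 17310 to 18991 in the other 6 libraries). Chaf1a stood at 165, 254 and 238 FPKM in p150DN 8-cell embryos, at 26.5 and 27.2 FPKM in EGFP blastocysts and at 27.7, 30.2 and 28.8 FPKM in EGFP 8-cell embryos. Defining genes of cumulus and granulosa cells (0 of 8) and of blood cells (0 of 4) did not reach 1 FPKM in any library. Summed markers of pluripotent blastomeres and inner cell mass were 797, 558 and 710 FPKM in p150DN 8-cell embryos, 962 and 1036 FPKM in EGFP blastocysts and 469, 356 and 524 FPKM in EGFP 8-cell embryos. The summed trophectoderm markers were 330, 377 and 529 FPKM in p150DN 8-cell embryos, 1110 and 1168 FPKM in EGFP blastocysts and 119, 101 and 114 FPKM in EGFP 8-cell embryos. Summed oocyte transcripts were 37.3, 74.8 and 63.4 FPKM in p150DN 8-cell embryos, 11.2 and 10.4 FPKM in EGFP blastocysts and 93.0, 99.0 and 77.5 FPKM in EGFP 8-cell embryos. Summed primitive endoderm markers overlapped between the groups. They were 147, 102 and 133 FPKM in p150DN 8-cell embryos. EGFP blastocysts had 151 and 143 FPKM, and EGFP 8-cell embryos had 167, 117 and 177 FPKM. The part of these markers in the values below was not tested. In such bulk samples, fewer cells of a type and less RNA per cell cannot be told apart.

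A RefSeq promoter table of assembly GRCm38.p6 held 6 of the 10 genes, Hspb1, Hspb8, Hspa1a, Hspa1b, Hspa2 and Hspa5. Hspa8, Hsp90aa1, Hsp90ab1 and Hsf1 are named only. The 150 bases before the start site are shown for 5 of these 6, since the genes differ both in the letters of stress elements and in their levels; the stretch of Hspa1b differs from that of Hspa1a at 1 base of 150. They lie at chr5:135887769-135887918 on the plus strand for Hspb1, chr5:116422865-116423014 on the minus strand for Hspb8 and chr17:34972157-34972306 on the minus strand for Hspa1a. The stretch of Hspa2 lies at chr12:76404220-76404369 and that of Hspa5 at chr2:34771940-34772089, both on the plus strand, and the start used for Hspa2 lies inside its annotated gene span. Capitals mark a pair of facing heat shock units (GAANNTTC) in Hspb1 and Hspa1a and the endoplasmic reticulum stress element (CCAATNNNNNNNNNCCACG) in Hspa5.
Hspb1: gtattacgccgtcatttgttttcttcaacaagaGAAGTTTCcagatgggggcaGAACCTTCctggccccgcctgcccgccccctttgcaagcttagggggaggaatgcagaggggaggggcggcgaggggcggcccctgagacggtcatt
Hspb8: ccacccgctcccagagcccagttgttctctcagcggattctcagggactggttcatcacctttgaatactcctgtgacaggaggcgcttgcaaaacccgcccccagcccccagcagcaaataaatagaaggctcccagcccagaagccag
Hspa1a: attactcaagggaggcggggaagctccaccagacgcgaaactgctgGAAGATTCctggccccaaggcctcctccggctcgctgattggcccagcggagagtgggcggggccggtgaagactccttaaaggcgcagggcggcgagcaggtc
Hspa2: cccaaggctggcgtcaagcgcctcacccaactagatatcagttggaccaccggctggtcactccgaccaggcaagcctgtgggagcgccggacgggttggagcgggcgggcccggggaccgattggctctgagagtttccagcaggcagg
Hspa5: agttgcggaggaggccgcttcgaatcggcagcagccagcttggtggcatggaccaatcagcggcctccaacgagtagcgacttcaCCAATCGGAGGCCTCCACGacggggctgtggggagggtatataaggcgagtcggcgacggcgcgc

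Both motifs were searched on both strands. The pair GAANNTTC, which reads the same on either strand, stood 117 to 110 and 97 to 90 bases before the start of Hspb1 and 104 to 97 bases before the starts of Hspa1a and Hspa1b. Of 32851 mouse promoters, 6.69% held it in the 250 bases before the start. Hspb8 had none before its start and 1 at bases 3 to 10 after it, and 1.1% of promoters held it in the 50 bases after the start. Neither Hspa2 nor Hspa5 had one in the window. The pair followed by a further unit (GAANNTTC, then NN, then GAA) was found in none of the 6 genes and in 0.466% of promoters. Hspa5 carried the endoplasmic reticulum stress element 65 to 47 bases before its start, as 37 promoters (0.113%) did, and its first letters overlap 1 of the gene's 4 CCAAT boxes. Such matches describe letters and do not show binding.

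**Figure D1:**
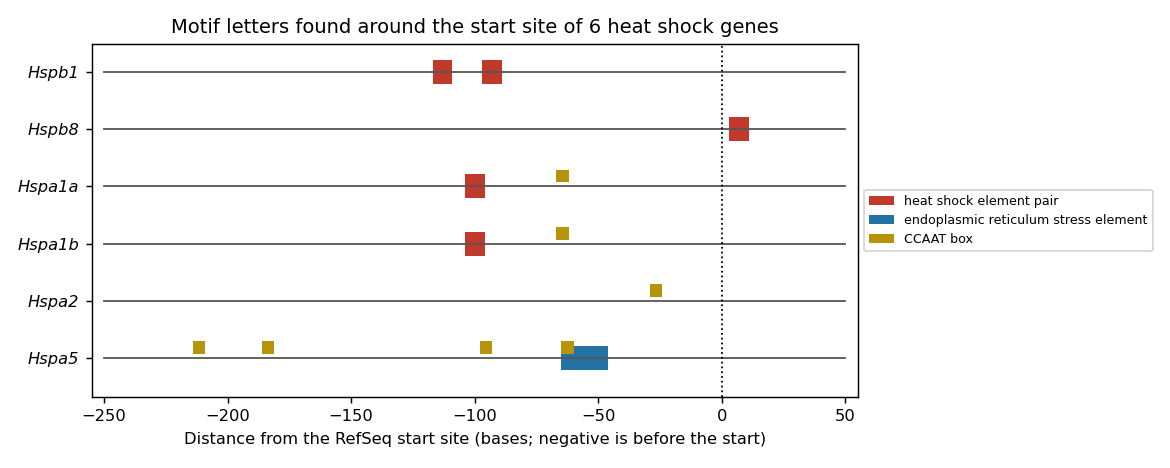
Motif letters within 250 bases before and 50 bases after the RefSeq start site of 6 heat shock genes. The horizontal axis is the distance from the start in bases, and each box is 1 match on either strand. The pair of heat shock units lies before the start in Hspb1, Hspa1a and Hspa1b and after it in Hspb8, and the endoplasmic reticulum stress element is seen in Hspa5 alone among these 6.

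Hspb8 was a clear transcript in p150DN embryos and in blastocysts and close to absent from EGFP 8-cell embryos. HSPB8 works with the co-chaperone BAG3 to hand misfolded proteins to autophagy. The gene stood at 8.76, 16.3 and 16.8 FPKM in p150DN 8-cell embryos, at 23.6 and 39.0 FPKM in EGFP blastocysts and at 0.159, 0 and 0 FPKM in EGFP 8-cell embryos. These values rest on 324, 579 and 507 fragments in p150DN, 829 and 1594 in blastocysts, and 6, 0 and 0 in EGFP 8-cell libraries. No library of one group reached into the range of another, and the order was blastocyst, p150DN, EGFP 8-cell. The summed trophectoderm markers and the summed markers of pluripotent cells had the same order of groups, also without overlap. Single markers within these sums differed. Tdgf1 was lowest in blastocysts (11.3 and 6.81 FPKM), and Tfap2c was higher in every EGFP 8-cell library than in any p150DN library. The part of these markers in the levels of Hspb8 was not tested. On the log2(FPKM + 1) scale, which understates differences of low genes, the p150DN embryos were 3.78 ± 0.26 (SE) above EGFP 8-cell embryos. Blastocysts were 4.90 ± 0.24 above the same libraries (limma, adjusted p = 1.96e-05). The p150DN difference was 6.62 with a pseudocount of 0.1 in place of 1, and the blastocyst difference 7.79, so the size in log2 units depends on the pseudocount. No EGFP 8-cell library reached the filter of 1 FPKM, so Hspb8 entered both comparisons only through the groups in which it was high. Its blastocyst difference is therefore also given as a description.

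Hspb1, the other small heat shock gene, was already present at the 8-cell stage. Its protein binds unfolding proteins and actin. Its levels were 10.2, 24.8 and 19.5 FPKM in p150DN 8-cell embryos, 12.4 and 18.6 FPKM in EGFP blastocysts and 6.17, 8.87 and 4.47 FPKM in EGFP 8-cell embryos. All p150DN and blastocyst libraries lay above all EGFP 8-cell libraries, while p150DN and blastocyst values overlapped. The log2 difference from EGFP 8-cell embryos was 1.31 ± 0.33 in p150DN embryos and 1.15 ± 0.28 in blastocysts (limma, adjusted p = 0.00891 for blastocysts). Without p150DN replicates 2 and 3 the p150DN difference was 0.62, and without blastocyst replicate 2 the blastocyst difference was 0.88 and no longer passed (adjusted p = 0.135). Per length, the level of Hspb8 over that of Hspb1 was 0.862, 0.657 and 0.863 in p150DN embryos, 1.90 and 2.10 in blastocysts and at most 0.0257 in EGFP 8-cell embryos.

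The stress-inducible pair Hspa1a and Hspa1b was lower in blastocysts than in 8-cell embryos of either kind. Both encode the same kind of HSP70, which refolds damaged proteins after stress. Hspa1b stood at 6.06, 8.57 and 6.76 FPKM in p150DN 8-cell embryos, at 0.919 and 1.03 FPKM in EGFP blastocysts and at 3.78, 7.20 and 4.69 FPKM in EGFP 8-cell embryos. Both blastocyst libraries lay below all 6 others, and the p150DN and EGFP 8-cell ranges overlapped. The blastocyst difference of Hspa1b was -1.62 ± 0.25 on the log2 scale (limma, adjusted p = 0.00111), against 0.41 ± 0.24 for p150DN, both relative to EGFP 8-cell embryos. Only 1 blastocyst library reached the filter of 1 FPKM, so Hspa1b needed the EGFP 8-cell libraries, in which it was high, to enter that comparison. Its blastocyst difference is therefore given as a description. After quantile normalization the p150DN difference was 0.076.

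Hspa1a was scarcer and followed its neighbour. It was measured at 0.456, 2.89 and 2.05 FPKM in p150DN 8-cell embryos, 0.0185 and 0.143 FPKM in EGFP blastocysts and 0.378, 2.67 and 1.02 FPKM in EGFP 8-cell embryos. The blastocyst values rest on 1 and 9 fragments. Again the blastocyst libraries were the lowest, and the 2 kinds of 8-cell embryo overlapped over nearly their whole range. No blastocyst library reached the filter of 1 FPKM, so Hspa1a entered the blastocyst comparison only through EGFP 8-cell replicates 2 and 3, in which it was high, and its difference of -1.01 ± 0.38 (limma, adjusted p = 0.0485) is given as a description. It missed the threshold without either blastocyst library (adjusted p = 0.261 and 0.205). The p150DN difference was 0.25 ± 0.43, and it was -0.041 without p150DN replicate 2, -0.074 without EGFP 8-cell replicate 1 and -0.11 after quantile normalization. The genes lie 10121 bases apart, and their promoter sequences differ at 4 of 300 bases. The authors' counting could have split fragments between such near-identical copies, so the single values are uncertain. Their sum was 6.52, 11.5 and 8.81 FPKM in p150DN embryos, 0.938 and 1.17 FPKM in blastocysts and 4.16, 9.86 and 5.71 FPKM in EGFP 8-cell embryos. Only 1 blastocyst library of the sum reached the filter of 1 FPKM, so the sum too needed the EGFP 8-cell libraries to pass. Its blastocyst difference of -1.81 (limma, adjusted p = 0.0018) is likewise given as a description.

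Hspa2 was higher in every p150DN library than in any other library. It is an HSP70 gene best known from the testis, where male germ cells need it to complete meiosis. Its values were 11.3, 26.8 and 10.5 FPKM in p150DN 8-cell embryos, 3.35 and 2.40 FPKM in EGFP blastocysts and 5.30, 5.48 and 3.36 FPKM in EGFP 8-cell embryos. Within p150DN, replicate 2 stood far above the other libraries. Blastocyst replicate 1 and EGFP 8-cell replicate 3 were almost level, and otherwise blastocysts were lower. The log2 difference was 1.49 ± 0.33 for p150DN, and 1.08 without its replicate 2, which was the highest library. For blastocysts it was -0.55 ± 0.24 and missed the threshold (limma, adjusted p = 0.0743). It passed without EGFP 8-cell replicate 3 (-0.73, adjusted p = 0.0196) and under 3 further alternatives. The summed level of 5 testis and sperm genes was 0.744, 1.29 and 2.81 FPKM in p150DN embryos, 0.752 and 0.931 FPKM in blastocysts and 0.703, 0.317 and 0.343 FPKM in EGFP 8-cell embryos, with 1 of the 5 at 1 FPKM in any library. In these libraries Hspa2 was 0.294% to 1.18% of the summed level of Hspa8, Hspa1a, Hspa1b and Hspa2 in p150DN embryos, 0.0824% and 0.158% in blastocysts and 0.196% to 0.362% in EGFP 8-cell embryos.

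Hspa8, which encodes the constitutive HSP70 of the cytosol, made up nearly all of that sum, between 98.31% and 99.88% in each of the 8 libraries. It stood at 3071, 2227 and 3557 FPKM in p150DN 8-cell embryos, at 2118 and 2916 FPKM in EGFP blastocysts and at 1843, 1498 and 1700 FPKM in EGFP 8-cell embryos. It was among the 10 highest genes of every library. EGFP 8-cell embryos were lowest without overlap, and p150DN embryos and blastocysts overlapped. The log2 difference was 0.79 ± 0.18 for p150DN and 0.57 ± 0.16 for blastocysts (limma, adjusted p = 0.0176). For p150DN, median-of-ratios scaling gave 0.50 and quantile normalization 0.41. The blastocyst call was lost with median-of-ratios scaling (0.34, adjusted p = 0.137), with quantile normalization (0.17, adjusted p = 0.38), with no filter on low genes (adjusted p = 0.0741) and without blastocyst replicate 2 (0.34, adjusted p = 0.185).

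Hspa5 encodes BiP, the HSP70 of the endoplasmic reticulum, which holds the sensors of the unfolded protein response in check. Mouse embryos need BiP around implantation. Its levels were 108, 125 and 109 FPKM in p150DN 8-cell embryos, 290 and 157 FPKM in EGFP blastocysts and 65.1, 75.6 and 59.4 FPKM in EGFP 8-cell embryos. The groups did not overlap and ran in the order blastocyst, p150DN, EGFP 8-cell, but the blastocyst libraries lay far apart. The log2 difference from EGFP 8-cell embryos was 0.77 ± 0.13 for p150DN and 1.67 ± 0.25 for blastocysts (limma, adjusted p = 0.000963). With median-of-ratios scaling the p150DN difference was 0.48. Without blastocyst replicate 1, the higher of the pair, the blastocyst difference was 1.23 (adjusted p = 0.0105).

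The HSP90 pair parted. Hsp90aa1, the inducible form, stood at 3074, 1733 and 2294 FPKM in p150DN 8-cell embryos, at 3930 and 4316 FPKM in EGFP blastocysts and at 861, 640 and 809 FPKM in EGFP 8-cell embryos. The groups were fully separated, in the order blastocyst, p150DN, EGFP 8-cell. The log2 difference was 1.59 ± 0.21 for p150DN and 2.43 ± 0.15 for blastocysts (limma, adjusted p = 3.27e-05), and the blastocyst value lay between 1.86 and 2.52 in 15 alternatives. Among all genes of a library, Hsp90aa1 ranked 6, 11 and 9 by level in p150DN embryos, 7 and 4 in blastocysts and 30, 46 and 38 in EGFP 8-cell embryos.

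Hsp90ab1, the constitutive form, was among the 5 highest genes of every library. Its values were 4753, 2900 and 4388 FPKM in p150DN 8-cell embryos, 4122 and 4512 FPKM in EGFP blastocysts and 3263, 2741 and 3202 FPKM in EGFP 8-cell embryos. p150DN replicate 2 fell within the EGFP 8-cell range, and the blastocyst libraries lay above that range. The log2 difference was 0.36 ± 0.19 for p150DN, and -0.034 after quantile normalization. For blastocysts it was 0.50 ± 0.12 (limma, adjusted p = 0.00941), which was lost or turned in 6 of 15 alternatives, with -0.021 after quantile normalization (adjusted p = 0.829). Without either blastocyst library it also missed the threshold (adjusted p = 0.069 and 0.13). Per length, Hsp90aa1 over Hsp90ab1 was 0.647, 0.598 and 0.523 in p150DN embryos, 0.953 and 0.956 in blastocysts and 0.264, 0.234 and 0.253 in EGFP 8-cell embryos. This ratio, which no scaling factor of a library can change, separated all 3 groups. In blastocysts it was 3.82-fold that of EGFP 8-cell embryos. With 2 against 3 libraries an exact permutation test, its two-sided p taken as 2 times the smaller tail, cannot go below 0.2. The ratio is therefore given without a test.

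Hsf1 itself varied little. It stood at 13.4, 11.6 and 11.0 FPKM in p150DN 8-cell embryos, at 11.2 and 12.8 FPKM in EGFP blastocysts and at 9.10, 9.47 and 9.06 FPKM in EGFP 8-cell embryos. The EGFP 8-cell libraries were the lowest, and the other groups overlapped. The log2 difference was 0.34 ± 0.15 for p150DN and 0.35 ± 0.14 for blastocysts, and the blastocyst comparison missed the threshold (limma, adjusted p = 0.059). With median-of-ratios scaling these differences were 0.077 and 0.14.

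**Figure D2:**
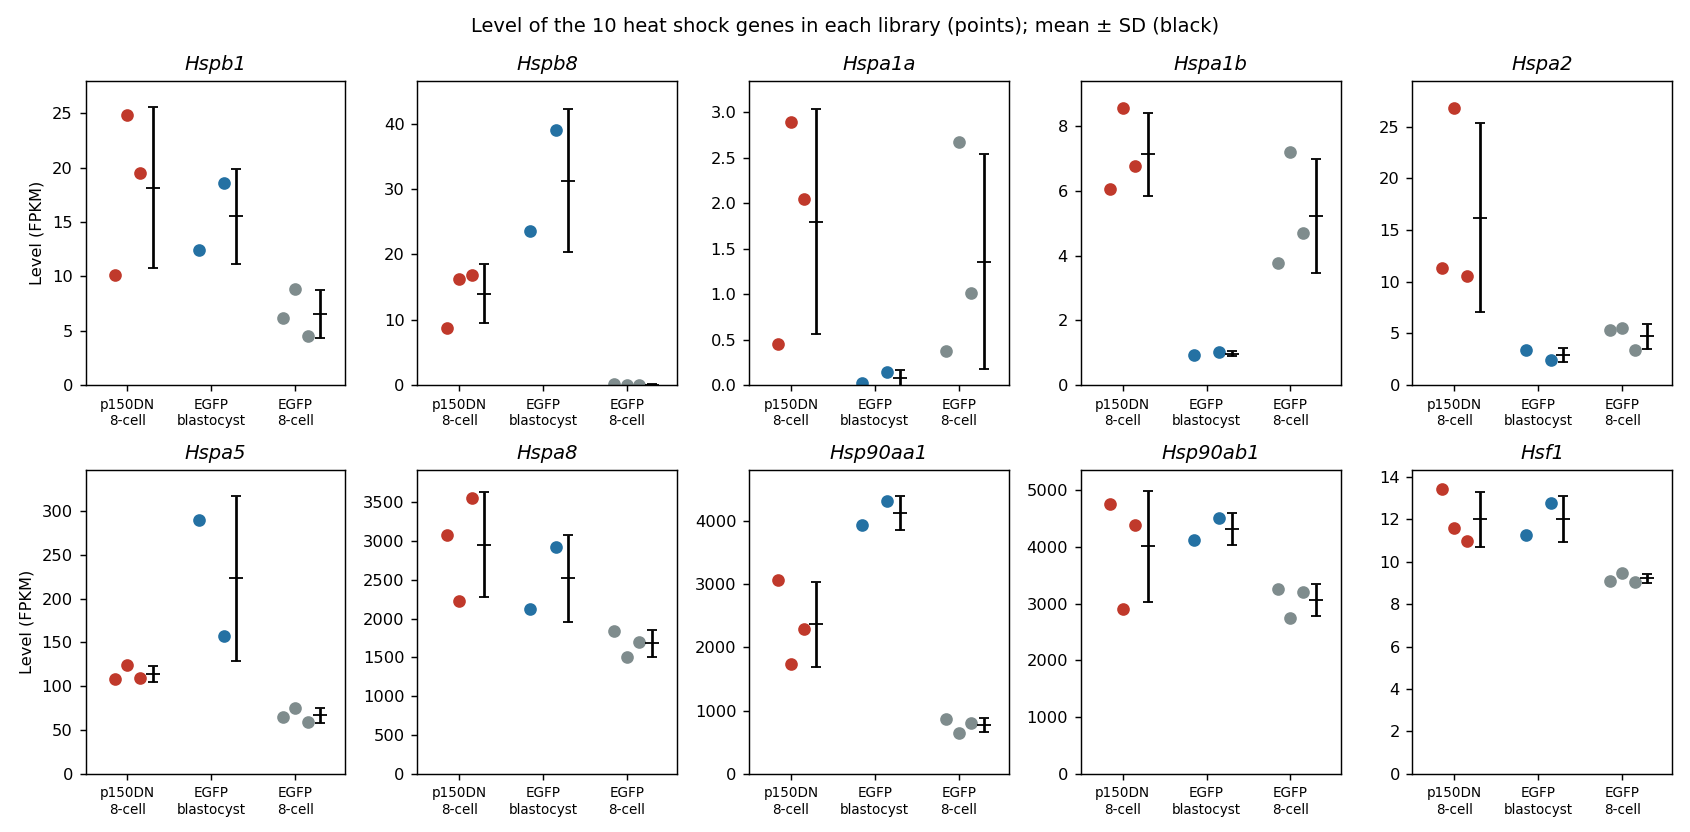
Level of each of the 10 heat shock genes in FPKM (vertical axes, linear and from 0, with a scale of their own). Coloured points are single libraries of p150DN 8-cell embryos (3), EGFP blastocysts (2) and EGFP 8-cell embryos (3), and black bars are mean ± SD. Hspb8 is near 0 only in EGFP 8-cell embryos, Hspa1b is lowest in blastocysts, and Hspa2 is highest in p150DN embryos.

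Across the 10 genes, 7 had every p150DN library above every EGFP 8-cell library, against 34.3% of the 11730 genes tested, and 0 had every library below (15.5% of genes). The 3 that overlapped were Hspa1a, Hspa1b and Hsp90ab1. These shares are a description, since this contrast chose the members. In blastocysts against EGFP 8-cell embryos, Hspb1, Hspa5, Hspa8, Hsp90aa1 and Hsp90ab1 rose, and Hspa2 and Hsf1 did not pass. Hspb8 was called higher and Hspa1a and Hspa1b were called lower, but these 3 needed the group in which they were high to pass the filter on low values. Of the 12199 genes tested there, 42.6% rose and 24.9% fell. Groups without overlap were seen for 7 members upward and 3 downward, against 49.3% and 30.3% of genes. Both comparisons use the same 3 EGFP 8-cell libraries, so their values for a member are not independent, and the blastocyst tests of Hspb8 and Hspa2 rest in part on libraries that led to their choice. All 10 members passed the filter on low values.

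The median of all tested genes was itself above 0, at 0.19 for p150DN and 0.28 for blastocysts on the log2 scale. It was -0.060 and 0.088 with median-of-ratios scaling and -0.032 and 0.028 after quantile normalization. Relative to the median, the p150DN differences of the members ran from 0.062 for Hspa1a to 3.59 for Hspb8. The blastocyst differences relative to the median were 4.62 for Hspb8, 2.15 for Hsp90aa1, 1.39 for Hspa5 and 0.88 for Hspb1. Those of Hspa8, Hsp90ab1 and Hsf1 were 0.29, 0.22 and 0.069, and those of Hspa1b, Hspa1a and Hspa2 were -1.90, -1.29 and -0.83.

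**Figure D3:**
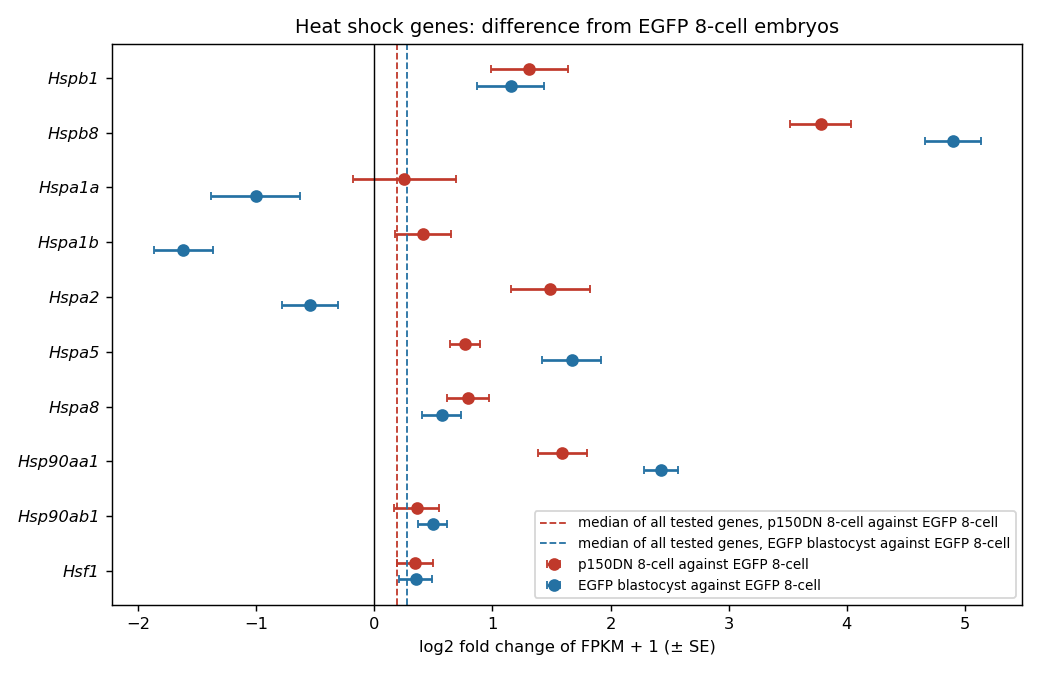
Log2 fold change of FPKM + 1 (horizontal axis, ± SE) of the 10 heat shock genes in p150DN 8-cell embryos (red) and EGFP blastocysts (blue), each against EGFP 8-cell embryos. Dashed lines mark the median of all tested genes, 0.19 and 0.28. Hspb8 and Hsp90aa1 lie far to the right in both comparisons, while Hspa2 is at 1.49 for p150DN and -0.55 for blastocysts.

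The genes whose levels followed Hspb8 most closely over the 8 libraries were Srarp (Pearson r = 0.998), Atpif1 (r = 0.996) and Npepps (r = 0.996), among 7117 genes that averaged 5 FPKM or more. Srarp stood at 4.56, 7.68 and 8.86 FPKM in p150DN 8-cell embryos, 10.7 and 12.7 FPKM in EGFP blastocysts and 0.265, 0.164 and 0.286 FPKM in EGFP 8-cell embryos, the same group order as Hspb8. For Hspa2 they were Csnk1g1 (r = 0.991), Rasl10a (r = 0.978) and Rsrp1 (r = 0.959). Rasl10a, a gene of the Ras superfamily, stood at 6.17, 9.14 and 6.93 FPKM in p150DN 8-cell embryos, 4.64 and 4.03 FPKM in EGFP blastocysts and 5.15, 5.84 and 4.65 FPKM in EGFP 8-cell embryos, with the same high library in p150DN replicate 2. These correlations describe 8 libraries that share 3 groups, and the choice of the highest among so many genes favours high values.

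Some members share their stretch of genome with other genes, and the strand setting of the counting is not stated. Hspb8 (chromosome 5, 116408491 to 116422864) overlaps the long noncoding RNA gene Gm36841, and Hspa2 (chromosome 12, 76403812 to 76406938) overlaps 4930426I24Rik. Neither noncoding gene was analysed here, and fragments of them cannot be told apart from those of the heat shock genes. Srrm4, the nearest gene at higher coordinates and so before the start of Hspb8 on its minus strand, stood at 0 to 0.137 FPKM in all 8 libraries. Zbtb1, the nearest gene before Hspa2, was not called in either comparison (0.23 and 0.27 on the log2 scale for p150DN and blastocysts). Hspa5 overlaps Rabepk, which stood at 2.09 to 5.82 FPKM, far below Hspa5.

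Beyond the 10 members, 138 genes of the chaperone network in 10 lists were examined. Of 119 tested for p150DN, 35 rose and 6 fell (34.5% called, against 34.3% of all genes, of which 24.6% rose and 9.68% fell), with a median log2 difference of 0.26 beside 0.19 for all genes. With median-of-ratios scaling 20 rose and 12 fell, with a median of -0.014 beside -0.060 for all genes, and after quantile normalization 32 rose and 10 fell. The number called was 27 without p150DN replicate 3 and 26 without EGFP 8-cell replicate 1, in place of 41. Of 120 tested for blastocysts, 61 rose and 19 fell (66.7%, against 67.5% of all genes), with a median of 0.46 beside 0.28. The share called in the network was thus close to that of all genes in both comparisons.

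The genes known as HSF1-inducible, most of them of the cytosol, are the list closest to the members. The list also holds the mitochondrial genes Hspd1 and Hspe1. For p150DN, 10 of its 17 tested genes rose and 0 fell (58.8% called, against 34.3% of all genes), with a median of 0.68 beside 0.19 for all genes. The counts were 8 higher and 1 lower with median-of-ratios scaling and 10 higher and 1 lower after quantile normalization. For blastocysts, 13 rose and 1 fell (82.4%, against 67.5% of all genes), with a median of 1.01 beside 0.28. Cryab, a small heat shock gene related to Hspb1 and Hspb8, stood at 12.0, 11.1 and 22.1 FPKM in p150DN 8-cell embryos, 18.1 and 21.2 FPKM in EGFP blastocysts and 0.118, 0.766 and 1.43 FPKM in EGFP 8-cell embryos. Its log2 difference was 3.19 ± 0.34 for p150DN and 3.61 ± 0.32 for blastocysts (limma, adjusted p = 0.000468 and 0.000107). Only 1 EGFP 8-cell library reached the filter of 1 FPKM, so Cryab entered both comparisons through the groups in which it was high. Its differences are therefore given as a description. Both groups lay wholly above EGFP 8-cell embryos and overlapped each other. Hsph1, the HSP110 that exchanges nucleotide on HSP70, rose by 1.47 ± 0.20 in p150DN embryos and 1.57 ± 0.21 in blastocysts (adjusted p = 0.00123 and 0.000601). The polyubiquitin gene Ubb rose by 1.48 ± 0.18 in p150DN embryos and 2.16 ± 0.16 in blastocysts (adjusted p = 0.000716 and 6.33e-05). Stip1, the adaptor that joins HSP70 to HSP90, fell by 0.56 ± 0.11 in blastocysts (adjusted p = 0.0032).

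The next lists are the partners of HSP90 and the chaperonins, ring complexes that fold proteins in a closed chamber. Subunits of prefoldin, which is not a chaperonin, are counted in the chaperonin list. Of 19 HSP90 co-chaperones, 4 rose and 0 fell for p150DN (21.1% called, against 34.3% of all genes), with a median of 0.11 beside 0.19. For blastocysts 8 rose and 2 fell (52.6%, against 67.5% of all genes), with a median of 0.39 beside 0.28. Ahsa1, which stimulates the ATPase of HSP90, stood at 105, 90.4 and 120 FPKM in p150DN 8-cell embryos, 137 and 161 FPKM in EGFP blastocysts and 51.1, 49.7 and 49.9 FPKM in EGFP 8-cell embryos. It rose by 1.04 ± 0.13 in p150DN embryos and 1.54 ± 0.11 in blastocysts (limma, adjusted p = 0.000858 and 5.23e-05). Of 17 chaperonin and prefoldin genes, 8 rose and 0 fell for p150DN (47.1% called, against 34.3% of all genes). For blastocysts 13 rose and 1 fell (82.4%, against 67.5% of all genes). The mitochondrial partners Hspe1 and Hspd1 rose by 1.04 ± 0.17 and 0.84 ± 0.15 for p150DN (adjusted p = 0.00274 and 0.00409). With median-of-ratios scaling 3 of 17 chaperonin and prefoldin genes were higher and 1 was lower for p150DN. With the same scaling 2 of 19 HSP90 co-chaperones were higher and 0 lower, with a median of -0.16. After quantile normalization 10 chaperonin and prefoldin genes were higher and 0 lower for p150DN, and 4 HSP90 co-chaperones were higher and 1 lower. Leaving out p150DN replicate 3 gave 4 called chaperonin and prefoldin genes, and leaving out EGFP 8-cell replicate 1 or 2 gave 5.

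Among partners of the HSP70 members the directions were mixed. For p150DN, 8 of 35 tested HSP40 genes rose and 4 fell (34.3% called, the share of all genes), and for blastocysts 14 rose and 9 fell (65.7%, against 67.5% of all genes). With median-of-ratios scaling the balance turned, to 4 higher and 7 lower for p150DN and 11 higher and 13 lower for blastocysts. Without EGFP 8-cell replicate 1, 6 were called for p150DN in place of 12. Dnajb1, the main HSP40 partner of inducible HSP70, rose by 1.03 ± 0.18 in p150DN embryos and 0.50 ± 0.17 in blastocysts (limma, adjusted p = 0.0032 and 0.0344). Dnajb9, a co-chaperone of BiP, was measured at 127, 231 and 115 FPKM in p150DN 8-cell embryos, 21.0 and 21.2 FPKM in EGFP blastocysts and 309, 324 and 221 FPKM in EGFP 8-cell embryos. It fell by 0.90 ± 0.26 in p150DN embryos (adjusted p = 0.027). It fell by 3.67 ± 0.17 in blastocysts (adjusted p = 1.81e-05), where Hspa5 was at its highest. Of 13 nucleotide exchange and adaptor factors, 1 rose and 1 fell for p150DN (15.4% called, against 34.3% of all genes). For blastocysts 5 rose and 3 fell (61.5%, against 67.5% of all genes). With median-of-ratios scaling 0 were higher and 2 lower for p150DN, and 5 higher and 6 lower for blastocysts. Without p150DN replicate 2, p150DN replicate 3 or EGFP 8-cell replicate 1, the p150DN count was 4, 0 or 1, and the blastocyst count was 5 without either blastocyst library. The co-chaperone Bag3, the partner of HSPB8, rose by 1.01 ± 0.21 in blastocysts (adjusted p = 0.00455; 0.0504 and 0.086 without blastocyst replicate 1 or 2), and its difference for p150DN was 0.34 ± 0.28 (adjusted p = 0.364).

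**Figure D4:**
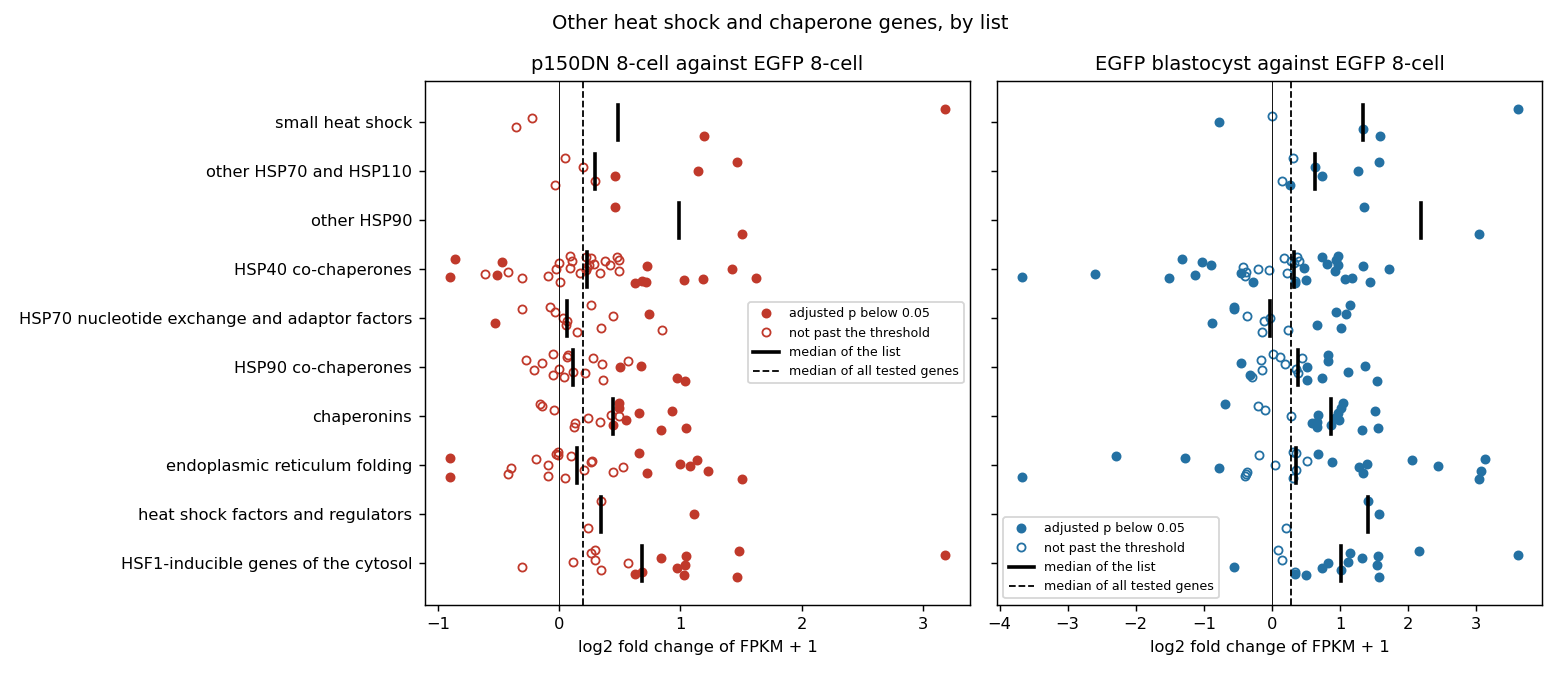
Log2 fold change of FPKM + 1 (horizontal axes, each panel with its own range) of chaperone genes in 10 lists, the 10 members left out. The left panel is p150DN 8-cell and the right panel EGFP blastocyst, each against EGFP 8-cell embryos; filled points passed the test, short black lines are list medians and the dashed line is the median of all tested genes. The HSF1-inducible list has its median at 0.68 and 1.01, and Cryab is its farthest point to the right in both panels.

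The remaining lists were small. Of 4 further small heat shock genes tested for p150DN, Cryab and Hspb2 were called higher. Of 5 tested for blastocysts 3 were called higher and 1 lower. Each of these calls needed the group in which the gene was high to pass the filter of 1 FPKM. In EGFP 8-cell embryos Hspb2 stood at 0, 0 and 0.185 FPKM. Hspb6, tested for blastocysts only, stood there at 0.181, 0.293 and 0 FPKM. Hspb9, the gene called lower, stood at 0.399 and 0.619 FPKM in blastocysts. The counts of this list are therefore a description and are not compared with the shares of all genes. Of 7 other HSP70 and HSP110 genes, 3 rose for p150DN and 5 for blastocysts, and none fell (0 in each). The shares called were 42.9% and 71.4%, against 34.3% and 67.5% of all genes. Hsp90b1, the HSP90 of the endoplasmic reticulum, and Trap1, that of mitochondria, rose in both comparisons, by 1.51 ± 0.14 and 0.46 ± 0.14 for p150DN and by 3.04 ± 0.22 and 1.36 ± 0.12 for blastocysts (limma, adjusted p = 0.000302, 0.0329, 5.85e-05 and 0.000101). The p150DN call of Trap1 was lost without any 1 of the libraries other than p150DN replicate 2 (adjusted p = 0.0736 to 0.0991) and with median-of-ratios scaling (0.18, adjusted p = 0.471). Of 3 heat shock factors and regulators tested, 1 rose for p150DN and 2 for blastocysts (33.3% and 66.7% called, near the shares of all genes). Hsbp1, which binds HSF1 and restrains it, was the one that rose in both (1.12 ± 0.19 in p150DN embryos and 1.58 ± 0.11 in blastocysts, adjusted p = 0.00312 and 4.79e-05).

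The folding genes of the endoplasmic reticulum, the compartment of BiP, changed in both directions. For p150DN, 7 of 24 tested genes rose and 2 fell (37.5% called, against 34.3% of all genes), and for blastocysts 10 rose and 4 fell (58.3%, against 67.5% of all genes). With median-of-ratios scaling the counts were 5 higher and 4 lower for p150DN and 9 higher and 8 lower for blastocysts. Without EGFP 8-cell replicate 1, 5 were called for p150DN. Calr, a lectin chaperone, stood at 156, 107 and 97.2 FPKM in p150DN 8-cell embryos, 564 and 318 FPKM in EGFP blastocysts and 45.6, 57.8 and 46.4 FPKM in EGFP 8-cell embryos. It rose by 1.23 ± 0.19 in p150DN embryos and 3.07 ± 0.24 in blastocysts (limma, adjusted p = 0.00195 and 7.04e-05). Xbp1, a transcription factor of the unfolded protein response, rose by 1.14 ± 0.26 in p150DN embryos and 3.13 ± 0.21 in blastocysts (adjusted p = 0.00968 and 4.26e-05). It stood at 0.902 FPKM in EGFP 8-cell replicate 2, below the filter of 1 FPKM, so Xbp1 needed p150DN libraries to enter the p150DN comparison. Its p150DN difference is therefore given as a description. The sensor gene Ern1 fell by 0.91 ± 0.23 in p150DN embryos and fell by 2.29 ± 0.19 in blastocysts (adjusted p = 0.0152 and 8.08e-05). Of 19 list genes with a promoter in the table, 6 held the stress element seen in Hspa5 (Hsp90b1, Dnajc3, Calr, Canx, Pdia6 and Creld2).

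The blastocyst libraries differed from each other in these genes. Hspa5 in replicate 1 was 1.85-fold that in replicate 2, and the median of the 24 list genes at 1 FPKM or more was 1.54-fold. The median of 10992 genes was 0.957-fold. At least 1.5-fold was reached by 13 of the 24 (54.2%) and by 6.86% of all genes. Hspa2 was also higher in replicate 1, at 1.39-fold. The ratio was 0.604 for Hspb8, 0.667 for Hspb1 and 0.726 for Hspa8, which were higher in replicate 2, and 0.911 for Hsp90aa1 and 0.914 for Hsp90ab1, close to the median. With 2 libraries the spread of Hspa5 in blastocysts cannot be resolved further.

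**Figure D5:**
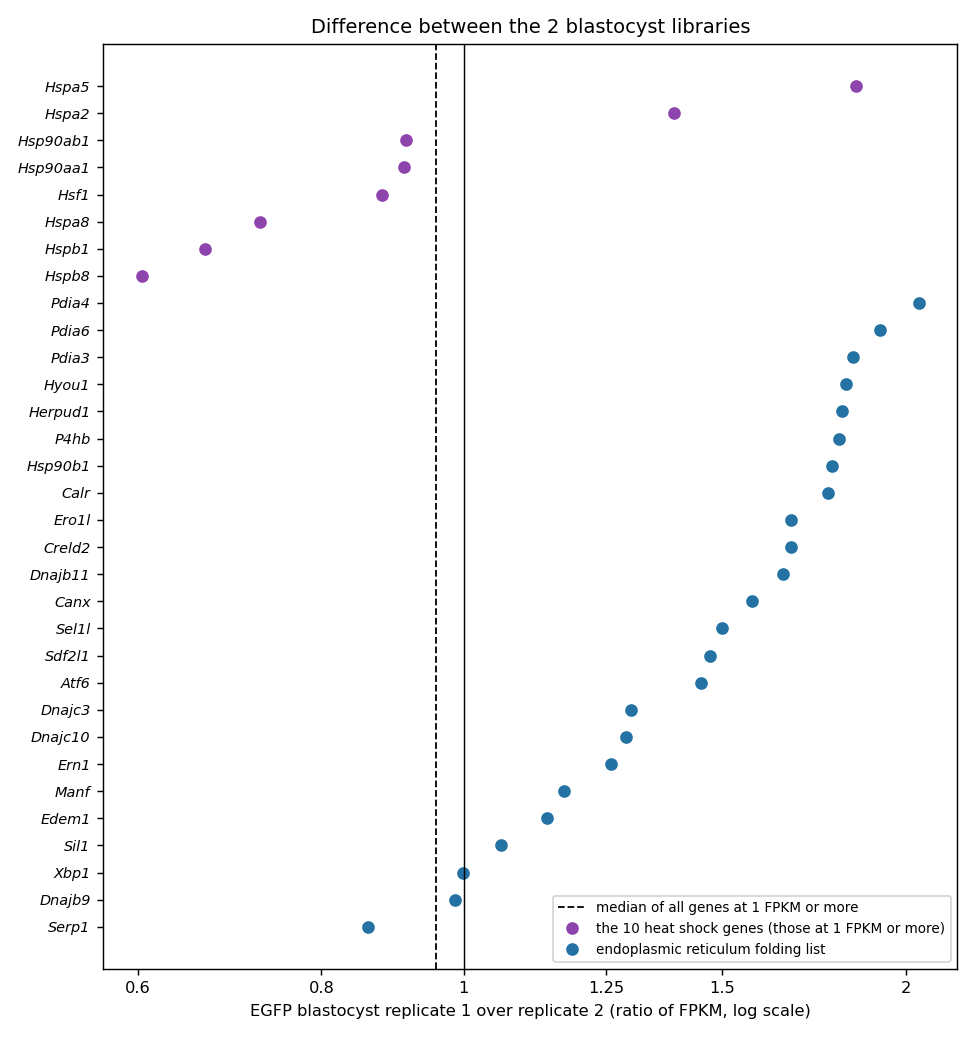
Ratio of FPKM in EGFP blastocyst replicate 1 to replicate 2 (horizontal axis, log scale) for the heat shock genes at 1 FPKM or more in both libraries (purple) and the endoplasmic reticulum folding list (blue). The solid line is equality and the dashed line the median of all such genes, 0.957. Hspa5 is at 1.85 beside Pdia3, Hyou1 and Herpud1, and Hspb8 is lowest at 0.604.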

How the data were processed

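RNA was measured by RNA-seq in 3 p150DN 8-cell, 2 EGFP blastocyst and 3 EGFP 8-cell libraries of a series of 73 samples, and the other 65 were not analysed here. Per the labels' protocols, a stranded SMART-seq kit was used on total RNA. The submitters' processing notes name Trim Galore, HISAT2, Bowtie2, SAMtools and featureCounts with no version or role, and mm10 as the build. The authors deposited FPKM values for 25220 gene symbols, per the file headers; the normalization fixes each library's total, so it cannot show how much RNA an embryo held. Columns named for 8-cell embryos without p150DN were taken as EGFP 8-cell, the only such group in the labels. Fragments recovered from the FPKM steps were whole for 23312 of 23316 genes, within 0.02 fragments. Within groups, Pearson r between replicates was 0.977 to 0.992, and replicates differed beyond counting noise.

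Values were transformed to log2(FPKM + 1) and fitted with limma 3.58.1 in R 4.3.3 (moderated with a trend, two-sided), each comparison on its own libraries. Genes needed 1 FPKM or more in 3 libraries (p150DN) or 2 libraries (blastocyst). A gene was called where its p, adjusted over all tested genes by Benjamini-Hochberg, lay below 0.05. The fit was tested on simulated data. Named genes were all 10 members, Chaf1a, and up to 4 called genes per list and comparison averaging 5 FPKM or more, their groups not overlapping; Stip1, Hspb2, Ern1 and the neighbouring genes fall outside this rule and were chosen knowing their values. The members and lists were chosen with earlier results of these data known. Same-numbered libraries did not deviate together (r of 0.0616, 0.0986 and 0.0346 for p150DN, -0.0318 and -0.0243 for blastocysts), so the numbers were not used as pairs. Promoters and gene positions came from RefSeq tables of GRCm38.p6, where 24920 symbols (98.8%) matched. Alternatives were other pseudocounts, filters, scalings, fits, a replicate block and left-out libraries.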

Additional observations from a re-analysis of the deposited data

How the results depend on the processing

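The count of genes called was 4023 for p150DN and ranged from 2441 to 4071 with 1 library left out, and it was 1913 from p150DN replicate 1 alone against EGFP 8-cell embryos, a setting added once the values were known, in which the lone library is assumed to vary like the others; the lowest values were 2610 without p150DN replicate 3 and 2441 without EGFP 8-cell replicate 1. For blastocysts it was 8236 and ranged from 6018 to 8144. The 41 called chaperone genes for p150DN ranged from 26 to 51 with 1 library left out. Other scalings moved the direction of calls: 2887 of 4023 were higher for p150DN, against 1753 of 3992 with median-of-ratios scaling and 1779 of 3612 after quantile normalization, and 5198 of 8236 for blastocysts, against 4289 of 8040 and 4027 of 7893. With the replicate block 4081 and 7861 genes were called, and the block changed 1 call among the members, Hspa2 in blastocysts (-0.73, adjusted p = 0.0264). Hsp90ab1 in blastocysts was -0.0207 after quantile normalization; the cause was not tested. Hspa5 and Hsp90aa1 kept their blastocyst calls in every alternative. Hspb8 and Hspa1b kept theirs in every alternative that gave a value. Since both needed the group in which they were high to pass the filter, this adds no support for them. Over all alternatives of the members in blastocysts, 125 values kept direction and side of the threshold, 15 lost the call, 4 gained it and 1 turned. Hspa1a gave no value under the stricter filter or without EGFP 8-cell replicate 2 or 3, where it did not pass the filter, and Hspa1b none under the stricter filter. Hspa1a in blastocysts rests on 1 and 9 fragments and Hspb8 in EGFP 8-cell embryos on 6, 0 and 0, so depth limits what can be said of either.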
